A study of Homo sapiens with 11 samples.

Results

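The clustered histone genes and the genes that make their mRNAs were followed in SK-MEL-103, a human melanoma line kept in culture. The 74 protein-coding genes were taken by symbol from 61542 genes: H1-1 to H1-6 and all genes whose symbol starts with H2AC, H2BC, H3C or H4C and a number, plus SLBP, NPAT, LSM10 and LSM11. They comprised 6 H1, 17 H2A, 19 H2B, 13 H3 and 15 H4 genes and the 4 processing genes, with 119 annotated transcripts. Cells were grown for 6 days with 0.5 µM tozasertib (n = 3, replicates 1, 2 and 4), an inhibitor of the Aurora kinases of mitosis, with 0.25 µM etoposide (n = 4), a topoisomerase II poison, or with the solvent DMSO (n = 4), with fresh medium and drug on day 3. The study used both drugs to make the cells senescent, that is, durably unable to divide, and asked what distinguishes these cells from DMSO cells. All samples come from 1 cell line. Whether the replicates of a group were grown separately is not stated, and the tests therefore rest on a spread that may be technical.

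Histone proteins package DNA, and dividing cells need a large supply of them while DNA is copied. Most clustered histone genes are replication-dependent: their mRNAs carry no poly(A) tail and end instead just after a conserved stem-loop in the 3′ untranslated region. The stem-loop is bound by SLBP, and the U7 small nuclear ribonucleoprotein, which holds LSM10 and LSM11, directs the cut. NPAT brings cyclin E-CDK2 signals to the transcription of these genes. Some of the genes also have longer or spliced transcripts that run past the stem-loop and end in a poly(A) tail. The libraries here were poly(A)-selected by the authors, so the values are those of histone RNA that was captured on its poly(A) tail, and total histone mRNA was not measured.

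The stem-loop was found in 69 of the 70 histone genes, H2BC12L being the exception, and in 0.196% of 250738 transcripts scanned. It came in 10 variants, of which the most common was in 40 genes. The 16 bases of the stem-loop are in capitals in the sequences printed here, with 5 bases on each side, read 5′ to 3′ on the gene's strand from GENCODE release 44 (GRCh38). They are shown because their position against the transcript end separates the 2 kinds of histone transcript. H2AC6, H2BC12, H2BC21 and H4C8 were among the genes with the largest rises, and H2AC20 and H3C3 were lower with both drugs.
H2AC6, chr6:26124669-26124684, plus strand: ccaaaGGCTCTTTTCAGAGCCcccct
H2BC12, chr6:27146366-27146381, minus strand: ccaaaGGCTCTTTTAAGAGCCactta
H2BC21, chr1:149886188-149886203, minus strand: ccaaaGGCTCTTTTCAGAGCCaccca
H4C8, chr6:26285131-26285146, minus strand: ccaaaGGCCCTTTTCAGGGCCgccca
H2AC20, chr1:149887391-149887406, plus strand: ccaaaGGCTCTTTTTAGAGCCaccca
H3C3, chr6:26045849-26045864, plus strand: gaaaaGGCTCTTTTCAGAGCCactca
Of the 103 histone transcripts, 68 ended 0 to 18 bases (median 5) after the stem-loop and were 386 to 797 nt long. Another 18 reached further past it and 17 held none, and these 35 were 372 to 5002 nt long. AATAAA or ATTAAA, the letters of the common poly(A) signals, stood in the last 40 bases of 18 of these 35 transcripts and of 1 of the 68. The 35 came from 19 genes, and the other 51 histone genes had stem-loop-ended transcripts only.

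Totals per sample ran from 27882689 to 56534763 reads, of which 12591 to 25734 fell on the 74 genes with tozasertib, 12131 to 17085 with etoposide and 5074 to 6296 with DMSO. DMSO replicates 1 and 4 stood apart: the deviation of a gene from its group mean went with gene length at a Spearman correlation of -0.51 in replicate 1 and 0.44 in replicate 4, over genes and not over independent samples. Histone genes are short, and their median deviation in DMSO replicate 1 was 0.16 on the log2 scale. Of 9 melanocyte lineage markers 5 were tested, of which 3 were called higher and 2 lower with tozasertib, and 2 higher and 2 lower with etoposide. The most abundant, the lineage factor SOX10, averaged 380 CPM (reads scaled to library size) with tozasertib, 323 with etoposide and 514 with DMSO, while the pigment genes MLANA and TYR reached at most 0.0623 CPM in any sample. PMEL, another pigment gene, averaged 3.86 CPM with tozasertib, 0.404 with etoposide and 0.326 with DMSO, and MITF, a regulator of pigment genes, averaged 9.26, 9.45 and 7.69 CPM in the same order. Keratinocyte markers summed to 44.2 to 53.5 CPM with tozasertib, 52.2 to 54.6 with etoposide and 48.2 to 67.02 with DMSO, nearly all of it KRT10, and immune cell markers to 43.2 to 48.2, 34.7 to 42.3 and 55.8 to 68.2 CPM, nearly all of it CD68, a lysosomal protein gene. Of the 3 keratinocyte markers tested, 1 was called lower and 0 higher with each drug, and of the 2 immune cell markers tested, both were called lower with each drug. The summed level of 6 fibroblast markers was 120 to 125 CPM with tozasertib, 138 to 155 with etoposide and 27.9 to 32.1 with DMSO, almost all of it from LUM and COL1A1, whereas DCN stayed at 0.18 CPM or less. Of the 5 fibroblast markers tested, 3 were called higher and 1 lower with each drug. Their part in the histone results was not tested.

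Histone RNA in these libraries was about 4 to 5 times as abundant with either drug as with DMSO. Summed over the 70 histone genes, TPM (transcript abundance per length) were 805, 796 and 798 with tozasertib, 747, 692, 682 and 725 with etoposide, and 193, 155, 175 and 181 with DMSO. The lowest drug sample stood far above the highest DMSO sample, and all tozasertib samples stood above all etoposide samples. The ratio of the means was 4.54 for tozasertib and 4.04 for etoposide against DMSO. In a bulk sample, more cells with histone RNA and more such RNA per cell cannot be told apart. The sums are given by family. H2B genes summed to 353 ± 11.4 TPM with tozasertib, 339 ± 8.19 with etoposide and 49.1 ± 4.72 with DMSO (SD; n = 3, 4 and 4, as for all group means here). H2A genes summed to 300.1 ± 9.58, 248 ± 12.5 and 56.4 ± 4.24 TPM in tozasertib, etoposide and DMSO samples. H4 genes summed to 95.7 ± 4.25, 74.0 ± 11.3 and 31.6 ± 6.03 TPM, and H1 genes to 43.8 ± 2.56, 43.1 ± 4.95 and 29.2 ± 3.79 TPM, in the same order of groups. H3 genes summed to 7.38 ± 0.414 TPM with tozasertib, 7.83 ± 1.71 with etoposide and 9.60 ± 1.60 with DMSO. The ranges of both drugs overlapped that of DMSO, where the highest tozasertib sample had 7.75 TPM and the lowest DMSO sample 7.61. The 5 genes with the highest TPM made a larger share with the drugs. H2AC6, H2BC12, H2BC5, H2AC18 and H1-2 held 73.7% ± 1.34 of histone TPM with tozasertib, 76.4% ± 1.63 with etoposide and 50.1% ± 2.29 with DMSO. The other 65 genes summed to 210.5 ± 10.8 TPM with tozasertib, 168 ± 17.8 with etoposide and 87.8 ± 8.42 with DMSO.

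Of the 74 genes, 34 had enough reads to be tested. With tozasertib 19 of them were called higher than with DMSO (55.9%, against 29.9% of 17033 genes tested) and 6 lower (17.6%, against 29.4%). With etoposide 16 were called higher (47.1%, against 27.7% of all genes tested) and 6 lower (17.6%, against 30.6%). Calls were made with edgeR's quasi-likelihood test, at a Benjamini-Hochberg adjusted p below 0.05 over all genes tested. A gene can pass the read filter through 1 group alone, so these counts describe the genes and are no support for a direction. The median log2 fold change of the 30 tested histone genes was 1.02 for tozasertib and 0.88 for etoposide, beside 0.02 and -0.01 over all genes tested. Without DMSO replicates 1 and 4, an alternative chosen after seeing the data, tozasertib gave 18 higher and 5 lower and etoposide 19 higher and 5 lower.

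**Figure D1:**
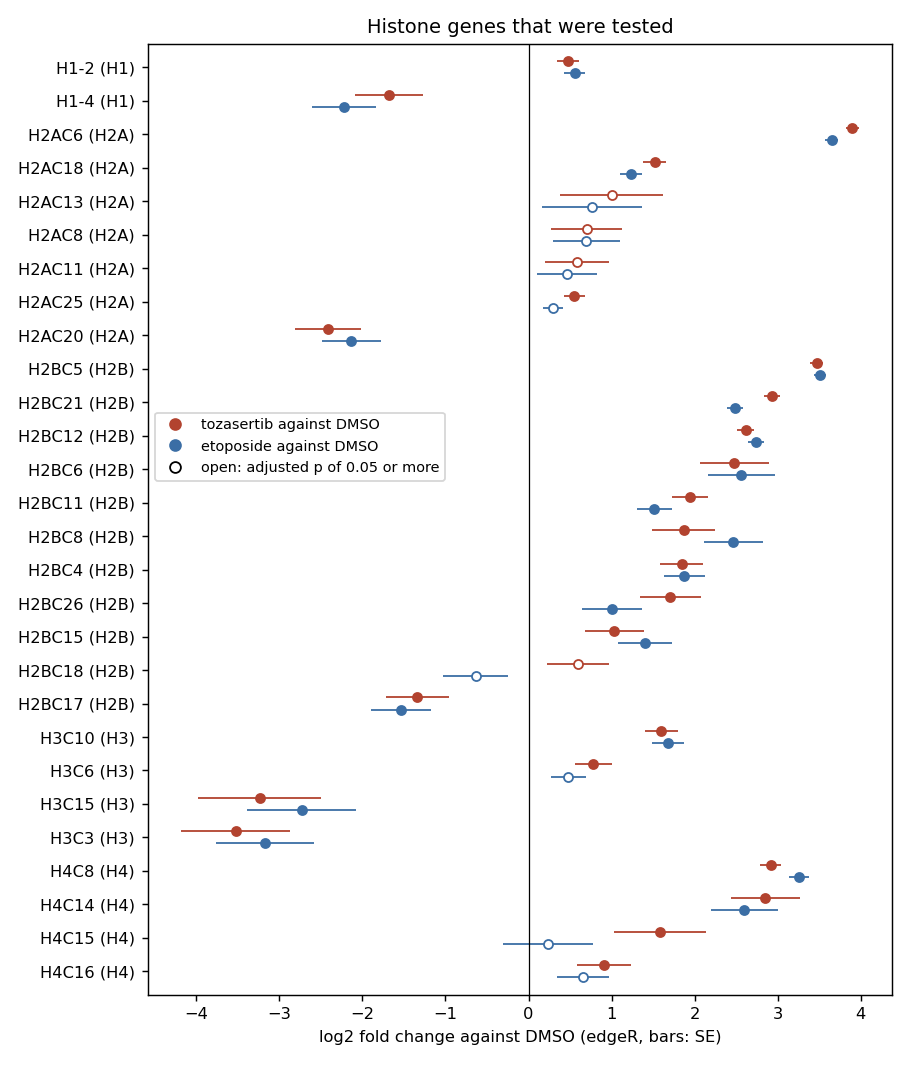
Log2 fold changes against DMSO (x axis) of 28 of the 30 tested histone genes, tozasertib in red above etoposide in blue, with bars of 1 SE and open points where the adjusted p was 0.05 or more. H4C11 and H4C12, between which reads could not be placed, are left out. H2AC6 and H2BC5 lie furthest right, at 3.90 and 3.47 for tozasertib, and H3C3 furthest left, at -3.52.

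H2AC6 encodes a histone H2A protein and lies at chr6:26124145-26139116. It had the most histone TPM of all with tozasertib, at 202, against 171 with etoposide and 11.2 with DMSO. Its levels were 136, 136 and 138 CPM with tozasertib, 116, 115, 114 and 116 CPM with etoposide, and 10.4, 7.75, 9.03 and 9.54 CPM with DMSO. Replicates of each group lay close together and no groups overlapped. The log2 fold change against DMSO was 3.90 ± 0.078 for tozasertib (SE; adjusted p = 3.13e-12 in edgeR) and 3.65 ± 0.076 for etoposide (adjusted p = 1.97e-12).

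H2BC12 and H2BC5 encode histone H2B. H2BC12 (chr6:27146361-27146855, a single exon) had 44.7, 45.0 and 48.6 CPM with tozasertib, 47.3, 49.6, 52.3 and 52.3 CPM with etoposide, and 9.05, 6.11, 7.599 and 7.31 CPM with DMSO. It rose by 2.62 ± 0.100 with tozasertib and 2.74 ± 0.097 with etoposide on the log2 scale, and it is annotated with a stem-loop-ended transcript only. Of its 72-base windows, a read's length, 41.3% also occur in other H2B genes. H2BC5 (chr6:26158122-26171349) had 27.5, 27.0 and 29.0 CPM with tozasertib, 28.9, 26.4, 30.3 and 28.7 CPM with etoposide, and 2.66, 2.35, 2.49 and 2.53 CPM with DMSO. Its rise of 3.47 ± 0.080 with tozasertib and 3.51 ± 0.077 with etoposide was the second largest in the set, and drug and DMSO samples were far apart.

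H2BC21 (chr1:149884459-149886682), also an H2B gene, had 45.9, 45.04 and 40.5 CPM with tozasertib, 33.8, 29.7, 34.3 and 31.3 CPM with etoposide, and 6.74, 6.04, 5.23 and 4.99 CPM with DMSO. The 3 groups did not overlap. Its log2 fold change was 2.93 ± 0.100 for tozasertib (adjusted p = 1.09e-10 in edgeR) and 2.49 ± 0.096 for etoposide (adjusted p = 2.47e-10). Of the lower H2B genes in level, H2BC4, H2BC6, H2BC8, H2BC11, H2BC15 and H2BC26 were also called higher with both drugs. These genes reached at most 3.03 CPM in any sample, and their log2 fold changes ran from 1.03 (H2BC15) to 2.48 (H2BC6) for tozasertib and from 1.00 (H2BC26) to 2.56 (H2BC6) for etoposide. The call of H2BC26 with etoposide was lost without etoposide replicate 1 (adjusted p = 0.104) or 3 (0.0603) or DMSO replicate 3 (0.0859) or 4 (0.0626). On length-scaled counts (adjusted p = 0.219 in edgeR) and without both DMSO replicates 1 and 4 (0.105) it was also no call. The call of H2BC15 with tozasertib was lost without tozasertib replicate 1 (adjusted p = 0.0633) or 4 (0.0610) or DMSO replicate 2 (0.0576), and at most 0.113 was reached, without DMSO replicates 1 and 4. With etoposide the H2BC15 call was lost on length-scaled counts (adjusted p = 0.0828).

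Among H4 genes, H4C8 (chr6:26277609-26285638) had 12.4, 11.7 and 15.97 CPM with tozasertib, 17.4, 15.6, 16.3 and 18.2 CPM with etoposide, and 1.76, 1.63, 1.93 and 1.72 CPM with DMSO. It rose by 2.92 ± 0.127 and 3.26 ± 0.122 on the log2 scale with tozasertib and with etoposide. H4C14 and H4C15 on chromosome 1 share nearly all of their sequence, and reads cannot be placed between them, so their sum is the value to read. Together they had 20.6, 21.02 and 15.4 CPM with tozasertib, 15.5, 16.1, 10.7 and 11.7 CPM with etoposide, and 4.87, 2.88, 2.80 and 4.18 CPM with DMSO, with no overlap between drug and DMSO samples. Taken alone, H4C14 was called higher with both drugs (2.85 and 2.60 on the log2 scale), and H4C15 with tozasertib (1.58, adjusted p = 0.0254 in edgeR) but not with etoposide (0.23, adjusted p = 0.736). The H4C15 call was lost without tozasertib replicate 2 (adjusted p = 0.0730 in edgeR) or 4 (0.0551), and without both DMSO replicates 1 and 4 (0.1315). H4C11 and H4C12 share over 91% of their windows, and their sum averaged 3.84 ± 0.539 CPM with tozasertib, 2.87 ± 0.034 with etoposide and 2.81 ± 1.23 with DMSO, where DMSO replicate 1 alone reached 4.63. H4C16 on chromosome 12 was called higher with tozasertib (0.91 on the log2 scale, adjusted p = 0.0283 in edgeR) but not with etoposide (0.65, adjusted p = 0.0893), and the tozasertib call was lost without both DMSO replicates 1 and 4 (adjusted p = 0.184). It was lost as well without tozasertib replicate 1 (adjusted p = 0.174), DMSO replicate 1 (0.0559) or DMSO replicate 4 (0.0670).

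Smaller rises were seen in other families. H2AC18 encodes H2A and shares all of its 72-base windows with H2AC19 or H2AC20, and H2AC19 is listed at 0, so reads of H2AC18 and H2AC19 cannot be told apart. It had 15.1, 15.4 and 14.1 CPM with tozasertib, 13.2, 11.98, 11.7 and 11.7 CPM with etoposide, and 6.56, 4.09, 5.73 and 4.28 CPM with DMSO, a log2 fold change of 1.52 ± 0.139 and 1.23 ± 0.132 for tozasertib and etoposide. The sum of H2AC18, H2AC19 and H2AC20 averaged 15.1 ± 0.634 CPM with tozasertib, 12.4 ± 0.706 with etoposide and 6.41 ± 1.36 with DMSO. The log2 ratio of these means to DMSO was smaller, at 1.24 for tozasertib and 0.96 for etoposide. H1-2, a linker histone gene, had 14.2, 15.2 and 16.3 CPM with tozasertib, 16.7, 14.7, 14.6 and 18.4 CPM with etoposide, and 13.4, 8.96, 9.53 and 11.9 CPM with DMSO. DMSO replicate 1 came within 1 CPM of the lowest tozasertib sample, and the change was 0.48 ± 0.134 for tozasertib (adjusted p = 0.00784 in edgeR) and 0.56 ± 0.125 for etoposide (adjusted p = 0.00189). H3C10, an H3 gene, had 1.85, 2.49 and 2.36 CPM with tozasertib, 2.30, 2.43, 2.20 and 2.48 CPM with etoposide, and 0.86, 0.57, 0.84 and 0.64 CPM with DMSO. H2AC25 had 12.4, 14.1 and 11.9 CPM with tozasertib, 11.98, 10.2, 8.84 and 11.7 CPM with etoposide, and 10.5, 7.75, 8.10 and 8.52 CPM with DMSO. It was called higher with tozasertib (0.55, adjusted p = 0.00239 in edgeR), while with etoposide, where it overlapped DMSO, its change of 0.29 lay at an adjusted p of 0.0516 and between 0.00822 and 0.14 over the alternatives. H3C6 was likewise called with tozasertib only (0.78, against 0.48 with etoposide, where the call was gained without etoposide replicate 3 at an adjusted p of 0.0189), and the difference between the drugs did not pass the test for either gene (adjusted p = 0.239 for H2AC25 and 0.437 for H3C6). Histone genes tested and called with neither drug were H2AC8, H2AC11, H2AC13, H2BC18, H4C11 and H4C12.

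**Figure D2:**
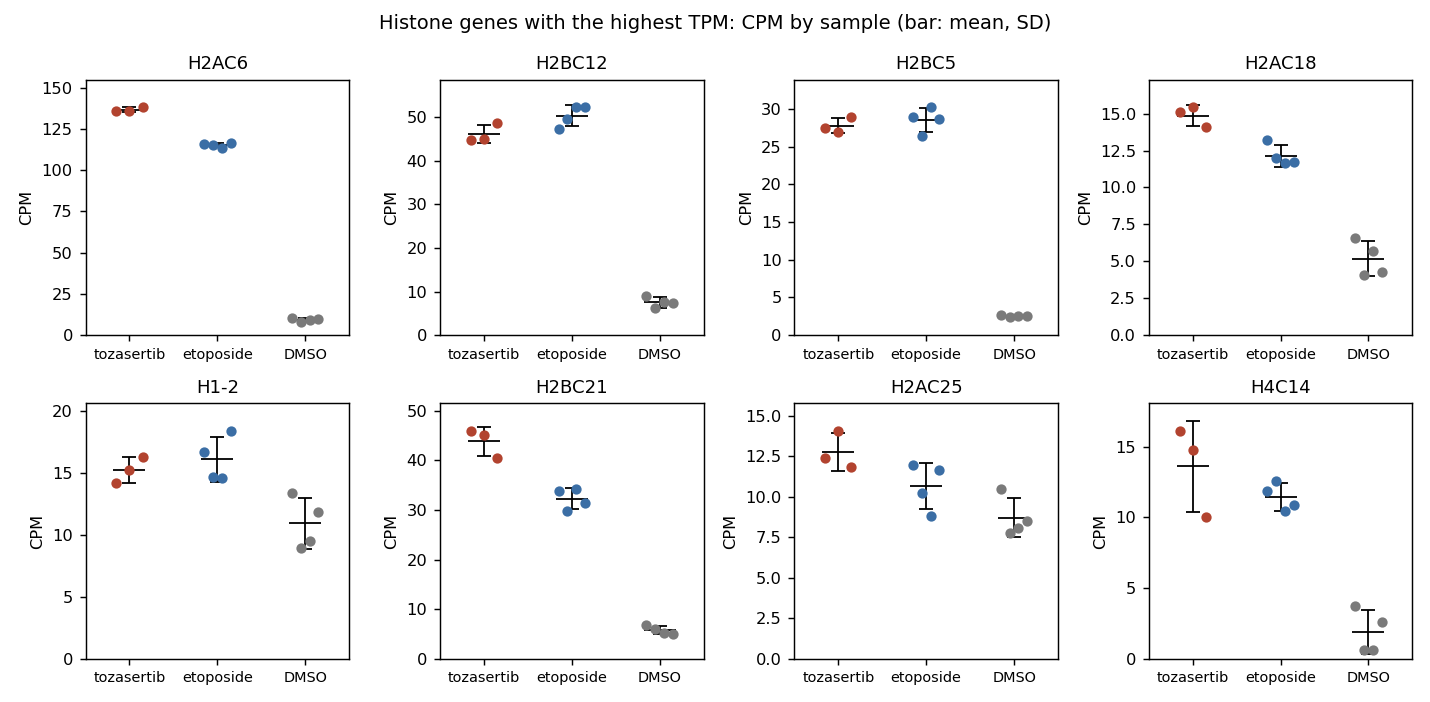
CPM by sample (y axis, from 0) of the 8 histone genes with the highest TPM, with tozasertib, etoposide and DMSO from left to right, points for samples and bars for the mean and SD. The drug samples of H2AC6, H2BC12, H2BC5, H2AC18, H2BC21 and H4C14 lie above all DMSO samples, and H2AC25 with etoposide overlaps DMSO.

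Of the 30 tested histone genes, 5 were called lower with both drugs (16.7%, against 29.4% of all genes tested with tozasertib and 30.6% with etoposide). A gene can pass the read filter through DMSO alone, so this count is no support for a direction. All 5 were low in level and are named because they are few. H2AC20 had 0.19, 0.18 and 0.33 CPM with tozasertib, 0.24, 0.19, 0.39 and 0.28 CPM with etoposide, and 1.59, 1.63, 1.00 and 0.74 CPM with DMSO. It fell by 2.42 ± 0.398 with tozasertib and 2.14 ± 0.356 with etoposide on the log2 scale, with no overlap. H3C3 held 5 reads in all tozasertib samples, 7 in all etoposide samples and 58 in all DMSO samples, a log2 fold change of -3.52 ± 0.656 and -3.17 ± 0.588. H3C15, whose windows all occur in H3C14 or H3C13 too, held 8, 12 and 73 reads in the 3 groups in the same order, and the sum of H3C13, H3C14 and H3C15 was 0.054 to 0.222 CPM with tozasertib, 0.049 to 0.197 with etoposide and 0.391 to 1.07 with DMSO. H1-4, a linker histone gene, averaged 0.525 ± 0.046 CPM with tozasertib, 0.356 ± 0.209 with etoposide and 1.68 ± 0.598 with DMSO. H2BC17 averaged 0.17 ± 0.0062, 0.148 ± 0.034 and 0.434 ± 0.139 CPM in tozasertib, etoposide and DMSO samples. Its tozasertib call was lost without the read filter (adjusted p = 0.0759), and it had too few reads to be tested without DMSO replicate 1, 3 or 4. The 40 histone genes that were not tested were low in sum and lower with the drugs on average: they held 1.57, 1.33 and 0.90 CPM together with tozasertib, 1.74, 1.30, 1.24 and 1.501 CPM with etoposide, and 3.70, 2.56, 2.62 and 1.75 CPM with DMSO. The highest etoposide sample thus lay next to the lowest DMSO sample, and 11 of the 40 had no reads in any sample.

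The genes were also counted by the kind of transcript annotated. Of the 19 histone genes with a transcript that passes the stem-loop or lacks it, 16 were tested, and 15 of these were called higher and none lower with tozasertib, against 11 higher and none lower with etoposide. Over all genes tested, 29.9% were called higher and 29.4% lower with tozasertib, and 27.7% higher and 30.6% lower with etoposide. Of the 51 genes with stem-loop-ended transcripts only, 14 were tested, and 4 were called higher (H2BC12, H2AC18, H1-2 and H2BC8) and 5 lower with each drug. As said above, membership of the tested sets depends on reads, and no test of the difference between these kinds of gene was made. The genes with another form summed to 450.3 ± 9.75 TPM with tozasertib, 379 ± 22.2 with etoposide and 58.5 ± 5.09 with DMSO. The genes with stem-loop-ended transcripts only summed to 349 ± 9.83, 333 ± 10.97 and 117 ± 15.3 TPM, in the same order.

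Single transcripts were compared next, which Salmon, the quantifier used by the submitters, tells apart only where reads differ. Transcripts over 1000 nt made 34.9%, 35.3% and 35.6% of histone TPM with tozasertib, 30.1%, 31.3%, 31.9% and 31.5% with etoposide, and 12.3%, 13.4%, 12.7% and 14.7% with DMSO. The 3 groups did not overlap, and the long share was 21.97 percentage points higher with tozasertib and 17.9 points higher with etoposide than with DMSO. The share is taken over all histone genes, so it also depends on how TPM are divided among the genes. A shift between transcripts within genes was not tested. Split at the stem-loop instead, a division made after seeing the data, transcripts past it or without it made 47.8% ± 0.337 with tozasertib, 43.7% ± 0.316 with etoposide and 25.8% ± 2.18 with DMSO. In TPM these transcripts summed to 382 ± 3.55 with tozasertib, 311 ± 11.8 with etoposide and 45.2 ± 3.18 with DMSO. Transcripts annotated as stem-loop-ended were higher in sum too. They had 418 ± 3.66 TPM with tozasertib and 401 ± 18.5 with etoposide, against 131 ± 14.8 with DMSO. Of this, 349 ± 9.83, 333 ± 10.97 and 117 ± 15.3 TPM came from genes with no other annotated form. These classes are those of the annotation, and the 3′ ends of the captured RNA were not measured.

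**Figure D3:**
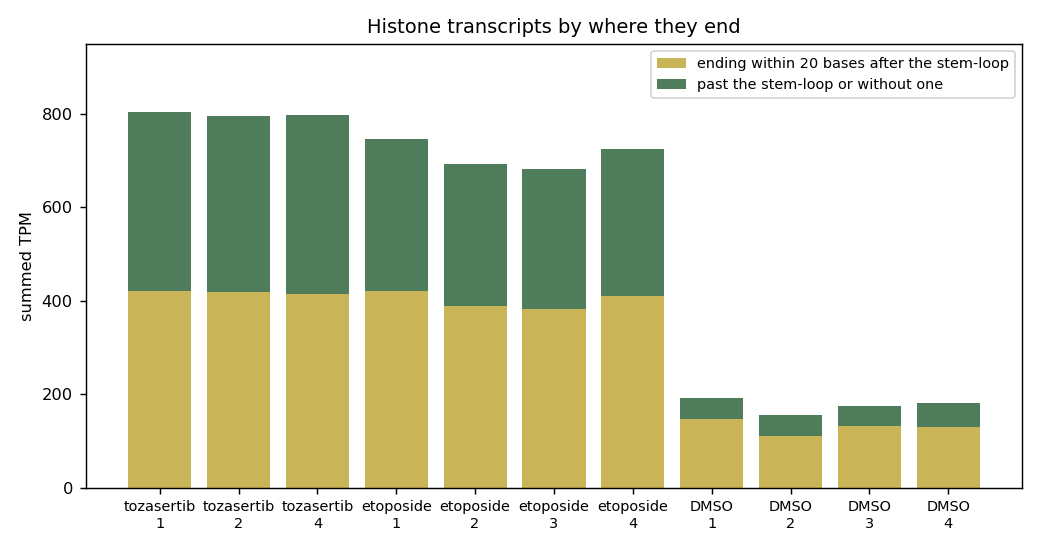
Summed TPM of histone transcripts (y axis) in each of the 11 samples. Transcripts are divided by annotated end into those ending within 20 bases after the stem-loop and those past it or without it. The ends of the captured RNA were not measured. Both parts are larger in all 7 drug samples than in any DMSO sample, and the second part makes 47.8% of the total with tozasertib and 43.7% with etoposide, against 25.8% with DMSO.

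With the drugs, most of the TPM over 1000 nt came from H2AC6, whose long transcripts H2AC6-201 and H2AC6-203 averaged 147 and 49.4 TPM with tozasertib, 112 and 40.4 with etoposide and 7.77 and 3.39 with DMSO. Its 1668 nt transcript H2AC6-201, of 2 exons and reaching 1128 bases past the stem-loop, had 144, 146 and 153 TPM with tozasertib, 110, 111, 109 and 119 TPM with etoposide, and 7.18, 6.66, 8.13 and 9.10 TPM with DMSO. The 519 nt stem-loop-ended transcript H2AC6-202 had 14.6, 0 and 0 TPM with tozasertib, 25.9, 21.8, 14.4 and 10.4 TPM with etoposide, and was listed at 0 in all DMSO samples. All windows of H2AC6-202 lie in the longer forms too, so reads over it can be given to either, and no fold is given for it. H2BC21 has 1 annotated transcript of 2224 nt, which reaches 1729 bases past the stem-loop and had 40.4, 39.3 and 35.4 TPM with tozasertib, 28.5, 24.6, 27.9 and 26.1 TPM with etoposide, and 4.34, 4.59, 3.96 and 4.06 TPM with DMSO. H4C8-203, of 2163 nt, had 8.44, 7.27 and 9.55 TPM with tozasertib, 11.9, 11.02, 9.85 and 11.9 TPM with etoposide, and 0.64, 1.08, 1.24 and 0.80 TPM with DMSO, while the stem-loop-ended H4C8-201 was listed at 0 in 7 of the 11 samples. H3C10-201, of 1250 nt, rose by 1.81 ± 0.300 with tozasertib and 1.95 ± 0.287 with etoposide on the log2 scale. The short H3C10-202 was given reads in only DMSO replicates 3 and 4. All windows of H3C10-202 and of H4C8-201 lie in longer forms too. Reads over these short forms can be given to either, so a listing at 0 does not show absence. For H4C14 the 1547 nt transcript H4C14-204 averaged 13.6 TPM with tozasertib, 11.6 with etoposide and 1.46 with DMSO, and the 396 nt H4C14-201, identical to H4C15-201, averaged 8.93, 4.78 and 1.64 TPM. The 1694 nt H4C15-202 averaged 4.78, 1.45 and 1.55 TPM in the same order. Reads of H4C14 and H4C15 are divided by estimate, so neither stands alone. For H2BC5, the spliced H2BC5-201, with no stem-loop, averaged 56.2 TPM with tozasertib, 55.2 with etoposide and 3.96 with DMSO. The stem-loop-ended H2BC5-202 was listed at 33.6, 30.7 and 3.098 TPM in the same order. Of the windows of H2BC5-202, 82.9% also lie in H2BC5-201, so most reads over it are divided by estimate. Whether the stem-loop-ended form rose on its own was not tested. Tested transcript by transcript over 69558 transcripts, 17 of the 51 member transcripts tested were called higher with tozasertib (5.59% of all transcripts) and 2 lower (7.03%), and with etoposide 15 were higher (6.05%) and 3 lower (6.29%). Without tozasertib replicate 1 the tozasertib total of 19 dropped to 12. Salmon's uncertainty in dividing reads is not part of this test.

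Many H2A and H2B genes lie head to head with their starts close together, so a pair gives a comparison of genes with overlapping start regions. The files held 12 such pairs with starts 170 to 251 bases apart. The promoters of 2 pairs are printed because both drugs changed their genes, in 1 case in opposite directions. They run from 250 bases before to 50 bases after the start in RefSeq (GRCh38.p14), 5′ to 3′ on the gene's strand, with the letters of the TATA box (TATAAA), those of the CCAAT box and those of the octamer (ATTTGCAT) in capitals on both strands, where neighbouring or overlapping matches run together.
H2BC21 promoter, chr1:149886633-149886932, minus strand: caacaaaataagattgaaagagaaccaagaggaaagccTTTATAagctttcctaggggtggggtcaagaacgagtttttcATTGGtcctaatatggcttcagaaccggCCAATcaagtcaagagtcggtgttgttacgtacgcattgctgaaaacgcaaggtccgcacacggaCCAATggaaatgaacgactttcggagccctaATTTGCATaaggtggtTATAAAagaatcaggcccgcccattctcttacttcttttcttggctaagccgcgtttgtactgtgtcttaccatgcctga
H2AC6 promoter, chr6:26123922-26124221, plus strand: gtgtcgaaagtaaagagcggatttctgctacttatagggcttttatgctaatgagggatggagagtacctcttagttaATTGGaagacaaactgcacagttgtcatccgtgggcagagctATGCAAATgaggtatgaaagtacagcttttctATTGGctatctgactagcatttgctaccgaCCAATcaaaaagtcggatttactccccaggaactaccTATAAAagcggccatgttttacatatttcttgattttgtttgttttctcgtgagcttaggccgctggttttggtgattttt
The first window holds the start region of H2AC20 on the other strand and the second that of H2BC4. RefSeq promoters were found for 68 of the 74 genes. In the 68 windows of 64 histone genes, TATAAA was present in 66.2%, against 11.5% of 35116 promoters, CCAAT in 85.3% against 34.6% and ATTTGCAT in 39.7% against 1.77%. CCAAT was in all windows of H1, H2A, H2B and H3 genes and in 23.1% of H4 windows, and ATTTGCAT was in 75.0% of H2B, 68.8% of H2A and 7.69% of H3 windows and in no H1 or H4 window. Matches on either strand were counted, and windows of head-to-head genes overlap, so the same site can count for both families. The ATTTGCAT match in the H2AC6 window is the same site as that in the H2BC4 window. The only H3 window with ATTTGCAT, listed for H3C4, has the same coordinates and sequence as the H2AC7 window. The other window listed for H3C4 held no ATTTGCAT.

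H2BC21 and H2AC20, whose promoter windows overlap, were called in opposite directions with both drugs. Promoter activity was not measured, and the cause was not tested. Of the 72-base windows of H2AC20, 18.4% also occur in H2AC18 or H2AC19. H2BC21 averaged 43.8 CPM with tozasertib, 32.3 with etoposide and 5.75 with DMSO, while H2AC20, whose start lies 236 bases away, averaged 0.23, 0.278 and 1.24 CPM. H2BC21 has only a transcript that passes the stem-loop, and H2AC20 only one that ends at it. H2AC6 and H2BC4, 219 bases apart, were both called higher with both drugs, H2BC4 at 1.45 CPM with tozasertib, 1.49 with etoposide and 0.40 with DMSO. H2BC12 averaged 46.1, 50.4 and 7.52 CPM, while its partner H2AC12 had 3 reads in all tozasertib samples, 0 in all etoposide samples and 15 in all DMSO samples. H2BC8 and H2BC11 rose while their partners H2AC8 and H2AC11 were not called in either comparison. H2BC26 rose with both drugs and H2AC25 was called with tozasertib only. H2AC25 and H2BC26, at chromosome 1 position 228434777 onward, lie apart from the main clusters. Of the 5 pairs with both genes tested, both genes were called higher in 2 with tozasertib and in 1 with etoposide, and the H2AC20 and H2BC21 pair was the 1 with opposite calls, under both drugs.

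**Figure D4:**
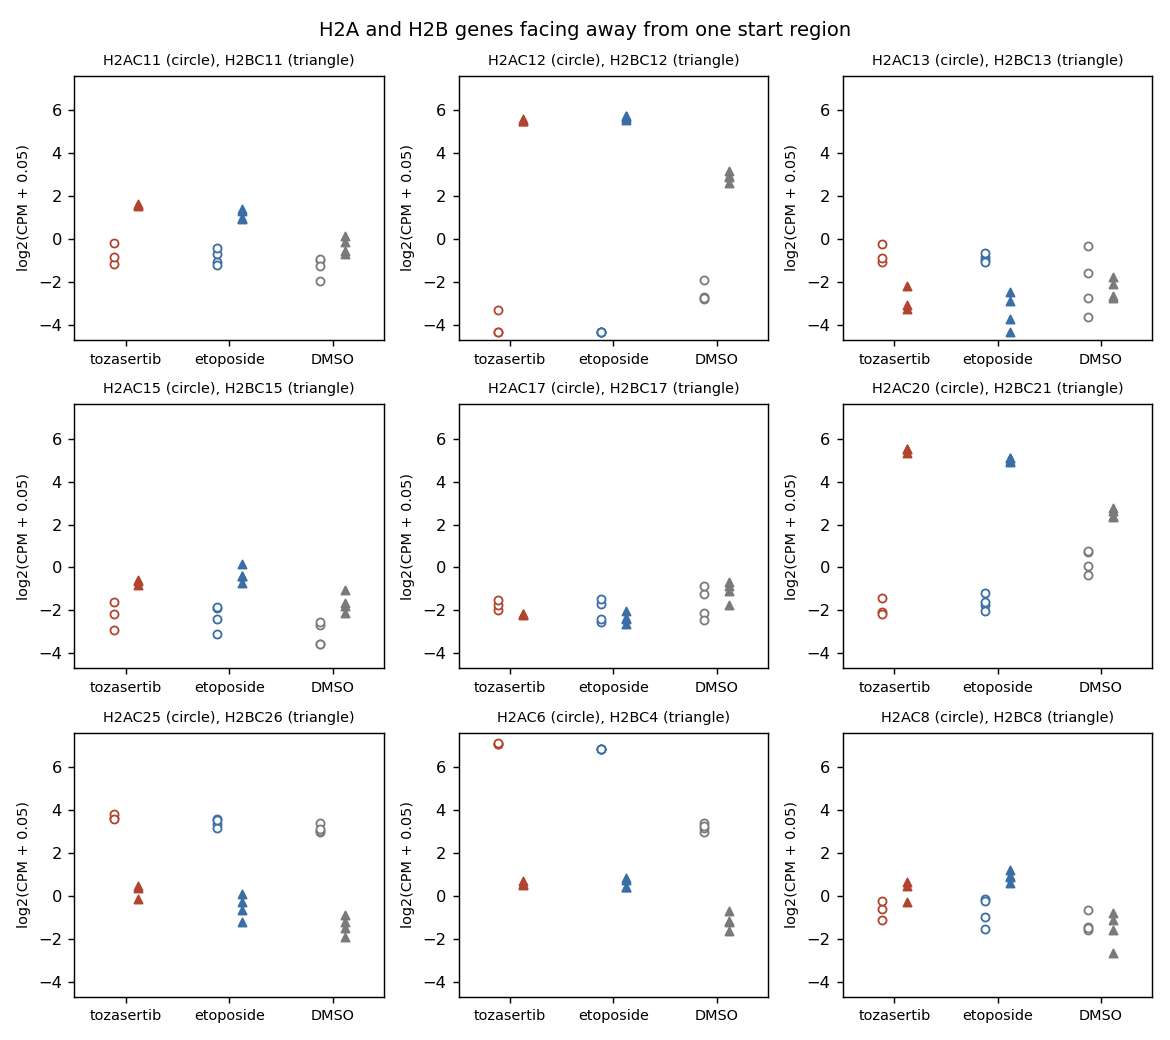
Levels as log2(CPM + 0.05) (y axis) by sample of the 9 head-to-head pairs with at least 1 gene tested, tozasertib, etoposide and DMSO from left to right, H2A genes as open circles and H2B genes as filled triangles. In the H2AC20 and H2BC21 panel the triangles lie higher with both drugs than with DMSO and the circles lie lower, and in the H2AC6 and H2BC4 panel both lie higher.

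Genes that make histone mRNA moved less, except SLBP. SLBP, which binds the stem-loop and is needed to process, export and translate the mRNAs, had 28.8, 32.8 and 31.3 CPM with tozasertib, 34.8, 35.9, 38.4 and 39.2 CPM with etoposide, and 74.8, 63.7, 63.9 and 63.8 CPM with DMSO. The 3 groups did not overlap, and it fell by 1.11 ± 0.079 on the log2 scale with tozasertib (adjusted p = 6.91e-08 in edgeR) and by 0.84 ± 0.071 with etoposide (adjusted p = 3.29e-07). Its 1810 nt transcript SLBP-206 averaged 26.2 TPM with tozasertib, 31.3 with etoposide and 48.9 with DMSO. LSM11, of the U7 ribonucleoprotein, had 12.5, 11.98 and 11.9 CPM with tozasertib, 13.2, 13.1, 15.999 and 14.6 CPM with etoposide, and 10.4, 11.6, 11.7 and 12.1 CPM with DMSO. It was called higher with etoposide (0.31 ± 0.084, adjusted p = 0.00623 in edgeR) and not with tozasertib (0.08 ± 0.091, adjusted p = 0.443), and the difference between the drugs was not called (adjusted p = 0.134). LSM10, its partner, had 22.8, 21.3 and 24.1 CPM with tozasertib, 23.0, 23.4, 26.1 and 26.2 CPM with etoposide, and 26.8, 18.8, 20.9 and 19.1 CPM with DMSO. NPAT had 21.4, 21.6 and 22.7 CPM with tozasertib, 20.98, 22.6, 24.5 and 22.8 CPM with etoposide, and 17.9, 23.0, 25.4 and 30.8 CPM with DMSO. Neither was called in any comparison, and both results depended on the DMSO samples used. Without DMSO replicate 1, LSM10 was called higher with etoposide (0.33, adjusted p = 0.00167 in edgeR) and with tozasertib (0.21, adjusted p = 0.0323). NPAT was then called lower (-0.22 and -0.27, adjusted p = 0.0482 and 0.0240). Without DMSO replicate 4, the NPAT change with etoposide was 0.036 and not called. LSM10 was also called higher with etoposide on library size alone (0.26, adjusted p = 0.0271 in edgeR).

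**Figure D5:**
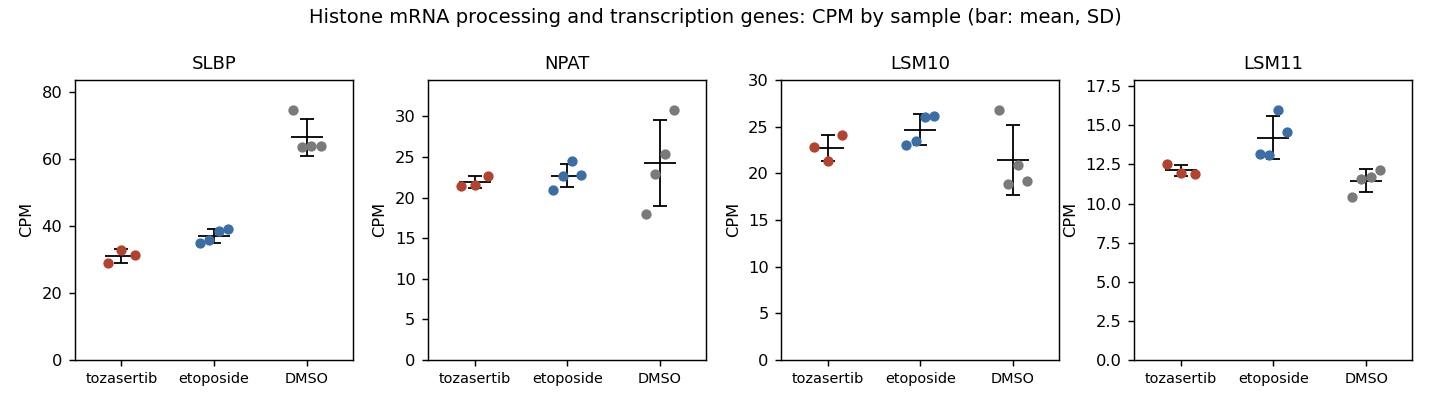
CPM by sample (y axis, from 0) of SLBP, NPAT, LSM10 and LSM11, with tozasertib, etoposide and DMSO from left to right, points for samples and bars for the mean and SD. SLBP lies at 28.8 to 39.2 CPM in all drug samples and at 63.7 to 74.8 CPM in DMSO samples, while the other genes overlap between groups in at least 1 comparison.

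Other genes of the pathway came from fixed lists, whose counts stand beside 29.9% higher and 29.4% lower with tozasertib and 27.7% higher and 30.6% lower with etoposide over all genes tested. Of 22 genes for histone 3′ end processing and decay, all tested, 2 were called higher and 11 lower with tozasertib, and 2 higher and 12 lower with etoposide. The median log2 change was -0.25 and -0.20, beside 0.02 and -0.01 over all genes. ERI1, an exonuclease of histone mRNA ends, was lower at -0.93 with tozasertib and -0.84 with etoposide on the log2 scale, and SNRPB, an Sm protein of small nuclear ribonucleoproteins, at -0.95 and -0.92. SRRT, of the cap-binding pathway, stood at -0.53 and -0.63, and CPSF3, the endonuclease of the cut, at -0.46 and -0.35. Of 14 genes of histone gene transcription control, 9 were called lower with each drug and 2 (tozasertib) and 3 (etoposide) higher. E2F1, a transcription factor of the G1 to S step, stood at -3.15 with tozasertib and -2.39 with etoposide, CCNA2 (cyclin A2) at -2.68 and -1.87, CCNE2 (cyclin E2) at -2.53 and -1.43 and CDK2 at -1.50 and -1.24. CCNE1 (cyclin E1), named after its values were seen, was called higher, at 0.44 with tozasertib (adjusted p = 0.0104 in edgeR) and 1.22 with etoposide (adjusted p = 1.42e-06). All 24 genes of DNA replication and S phase were called lower with both drugs, with a median log2 change of -1.93 with tozasertib and -1.52 with etoposide. Among them CDC6, which loads the replicative helicase, stood at -2.49 and -1.59, MCM4, a helicase subunit, at -2.09 and -1.51, RRM1, of ribonucleotide reductase, at -1.89 and -1.45 and UHRF1, which keeps DNA methylation through replication, at -1.90 and -1.43, tozasertib before etoposide. Of 24 histone chaperones and assembly genes 20 were called lower and 1 higher with tozasertib, and 19 lower and none higher with etoposide, among them CHAF1A, of the assembly factor CAF-1, at -2.08 and -1.60. Of the genes listed as replication-independent histone genes, 9 of 10 tested were called lower with each drug and none higher. H2AX, which is marked at DNA breaks, averaged 32.6 ± 1.75 CPM with tozasertib, 51.1 ± 3.04 with etoposide and 184 ± 29.0 with DMSO, CENPA, the centromeric H3, 3.51 ± 0.191, 6.56 ± 1.59 and 27.8 ± 3.37 CPM, and H2AZ2 64.5 ± 0.706, 78.0 ± 3.01 and 172 ± 7.95 CPM. Of 15 genes of the polyadenylation machinery 2 were called higher and 9 lower with tozasertib, and 1 higher and 7 lower with etoposide, with a median change of -0.23 and -0.15, and NUDT21, a subunit of cleavage factor I that favours distal poly(A) sites, stood at -0.63 and -0.51.

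Tozasertib against etoposide asked whether the 2 drugs left different histone RNA. Of the 34 genes tested, 2 were called higher (5.66% of all genes tested) and 1 lower (5.45%) with tozasertib,. H2BC21 was higher with tozasertib by 0.44 ± 0.090 on the log2 scale (adjusted p = 0.00673 in edgeR), and this call held in all alternatives run, with adjusted p of 0.000238 to 0.0480 and of 0.0107 with the replicate block. H2AC6 was higher by 0.25 ± 0.070 (adjusted p = 0.0373) and SLBP lower by 0.26 ± 0.078 (adjusted p = 0.0474). Both calls were lost with the replicate block, at adjusted p of 0.0741 for H2AC6 and 0.111 for SLBP. On length-scaled counts both were lost too (0.275 for H2AC6 and 0.123 for SLBP). H2AC6 also lost its call without any one of the 7 drug samples (adjusted p of 0.0583 to 0.130). SLBP lost its call without any one tozasertib sample (adjusted p of 0.073 to 0.231 in edgeR). The SLBP call was lost as well without etoposide replicate 2, 3 or 4 (0.077 to 0.125). Leaving out DMSO replicate 2, 3 or 4 gave 0.0507 to 0.0659 for SLBP. Tozasertib and etoposide samples of the same number deviated together. H4C8 was lower with tozasertib by 0.34 ± 0.109 without passing the test (adjusted p = 0.0671), and it passed without tozasertib replicate 4 (0.0113) or DMSO replicate 1 (0.0384). H2BC5 differed by -0.04 ± 0.068 and H2BC12 by -0.13 ± 0.092, neither of them called. No transcript of the members was called between the drugs by edgeR.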

How the data were processed

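RNA was poly(A)-selected and made into strand-specific libraries by the authors and read as single-end reads. Tools in the submitters' processing notes are Salmon 1.9.0, cutadapt 4.7, DESeq2 1.40.2 and R 4.4.2, with GRCh38 as the build, and the study's methods name a different aligner. The deposited tables hold, per the file headers, Salmon's estimated counts (NumReads) and TPM per transcript, with replicates kept apart. Salmon's transcript release is not given in the sources used here. By versioned identifier, transcripts were joined to GENCODE release 44: 250738 of 251645 matched (99.6%), and the others were left out. Estimated counts were summed to genes, rounded to whole numbers and tested with edgeR 4.0.16 in R 4.3.3 (quasi-likelihood, filterByExpr, TMM, 1 mean per group over all 11 samples, two-sided, Benjamini-Hochberg adjustment over all genes, called under 0.05). CPM are TMM-scaled and each SE is the log2 fold change over the root of F. Transcripts were tested in the same way. A planned test of transcript usage within genes made false calls on simulated counts and was left out. All replicates differed by more than counting noise.

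The members and lists were chosen with earlier results of these data known. Named genes are SLBP, NPAT, LSM10, LSM11, the 8 histone genes with the highest TPM, called genes of at least 2 CPM (up to 10 each way for each drug, 6 between drugs), and up to 4 genes of each list; other members are named because each tested gene is accounted for, with their values known when they were chosen. Tozasertib and etoposide samples with the same replicate number deviated together (correlations of deviations 0.36, 0.12 and 0.23), so for that comparison the numbers were taken to pair the samples. Against DMSO they were not (-0.11 to 0.13). Alternatives were other scalings and tests (DESeq2 1.42.0), no filter, length-scaled counts, only the 2 groups compared, the replicate block, leaving out each sample, and other rules for a long transcript. Gene lists of keratinocyte, immune and endothelial markers were checked too: KRT1, PTPRC, CD3E and CDH5 were at 0.244 CPM or less, and endothelial markers summed to 0.876 to 1.17 CPM with tozasertib, 0.842 to 1.49 with etoposide and 0.656 to 1.10 with DMSO, with 1 of 2 tested called higher and 1 lower with each drug.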

Additional observations from a re-analysis of the deposited data

Results flagged for a closer look

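SLBP in DMSO replicate 1 stood apart from the other DMSO samples, at 74.8 CPM against 63.7 to 63.9 CPM, a gap of 0.98 of the range of the 4 samples, above Dixon's 95% critical value for 4 samples. It was 1 of 44 groups of 4 looked at, and chance flags about 1 in 20 groups. Without this sample SLBP fell by 1.05 with tozasertib (adjusted p = 9.62e-09 in edgeR) and by 0.79 with etoposide (adjusted p = 6.92e-08) on the log2 scale.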

How the results depend on the processing

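Against DMSO, the counts of members called stayed within 1.5 times in all alternatives run, at 20 to 25 with etoposide and 23 to 26 with tozasertib when 1 sample was left out, 15 to 19 and 17 to 20 of them higher and 5 to 7 and 5 to 6 lower. Of the values for single genes, 2330 kept direction and side of the threshold, 62 lost the call, 26 gained it and 4 turned. With etoposide, H4C15 (0.23) was -0.086 without DMSO replicates 1 and 4, -0.21 without etoposide replicate 1 and -0.12 without etoposide replicate 2, and it ran from -0.21 to 0.60 over all samples left out. NPAT (-0.10) ran from -0.22 to 0.036, the last without DMSO replicate 4. The cause was not tested. The etoposide difference in long share, 17.9 points, was 12.6 with over 800 nt as long, 13.2 with over 1500 nt, 23.6 with spliced transcripts added and 24.0 on reads. The tozasertib difference, 21.97 points, was 17.3, 16.9, 27.2 and 28.8, and the difference between the drugs, 4.04 points, was 4.702 with over 800 nt and 4.80 on reads. Leaving out 1 sample gave 17.6 to 18.4, 21.7 to 22.4 and 3.67 to 4.28 points for these 3 differences. Member transcripts called with tozasertib, 19 in all, were 12 without a filter, 12 with the replicate block and 12 to 19 with 1 sample left out, and with etoposide 15 to 20. Between the drugs, 3 members were called (2 higher, 1 lower). DESeq2 size factors gave 1 higher and 2 lower, library size alone 0 lower, no filter 5 in all with 2 lower, the DESeq2 test 2 lower, length-scaled counts 1 in all (1 higher, 0 lower), only the 2 groups 5 in all with 4 higher, and no DMSO replicates 1 and 4 gave 5 in all with 2 lower. Leaving out 1 sample gave 1 to 5 in all, 1 to 3 higher and 0 to 2 lower. The replicate block left 1 (1 higher, 0 lower). Against DMSO, where numbers did not pair the samples, the block gave 24 called with etoposide and 23 with tozasertib. With it the tozasertib calls of H4C15 and H4C16 had adjusted p of 0.0835 and 0.0600, and H2AC25 and H3C6 were called with etoposide (0.0454 and 0.0381). Samples correlated best with their own number in 3 of 8 for etoposide and 1 of 6 for tozasertib. Over all genes between the drugs, the DESeq2 test called 1034 higher and 1550 lower, against 964 and 929. Library size alone moved the median of all genes with tozasertib to 0.11. Genes under 2 CPM rest on few reads, and intervals and tests cover the spread of these samples only.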
